A study of Mus musculus with 90 samples.

Results

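Ribosome biogenesis was followed in mouse liver through 39 genes that encode the machinery making ribosomes. The genes were picked by symbol for their known role, with earlier results of these data already known. They were looked up in 4 tables of estimated RNA-seq counts, where all 39 were found among 27654 gene IDs. By role they divide into 4 genes of RNA polymerase I transcription, 7 of the small nucleolar ribonucleoproteins (snoRNPs), 12 of small-subunit assembly, 11 of large-subunit assembly and 5 nucleolar proteins with broader tasks.

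Ribosomes are assembled in the nucleolus, where RNA polymerase I transcribes a long precursor of ribosomal RNA. The precursor is cleaved, methylated and pseudouridylated, the modifications being guided by small nucleolar RNAs, while assembly factors join and leave the growing subunits. Making ribosomes is among the most expensive activities of a cell, so its genes are known targets of growth regulators such as MYC and respond to nutrient supply.

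The study asked how the glucocorticoid receptor (GR) takes part in the liver's response to caloric restriction (CR), using male C57BL/6J mice. In the time series, GRfl/fl mice (called WT) and GRfl/fl x Alb-Cre mice (called GRLKO), in which the albumin promoter drives Cre in hepatocytes, received either night-restricted feeding (NRF) or night feeding with the ration lowered stepwise by 40% (CR), and livers were taken every 4 h from ZT0 to ZT20. In the diet experiment, livers of WT mice on CR or control feeding were taken at ZT12, and the control titles carry the letters AL although their treatment label says night-restricted feeding. By the paper's account, control mice ate freely until the last week before collection, and only then was their food limited to the night. In the hormone experiment, adult WT mice on NRF were injected daily with corticosterone or vehicle shortly before ZT12, and livers were taken at ZT12.

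Mice of the time series and the diet experiment were 20 to 21 weeks old, and RNA came from whole liver. The time series holds 42 NRF and 36 CR libraries, with 3 or 4 per group, and the other experiments hold 3 libraries per group. The methods call the replicates biological but the labels do not say whether they are separate mice, so p-values measure only the spread between these samples. The 4 tables were normalized separately and tests were run only within a table, apart from interactions, which compare effects. In the time series the NRF and CR libraries come in separate tables with separate runs of library numbers, so their levels were not tested against each other there.

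The targeted gene, *Nr3c1*, which encodes GR, had at most 32.1 CPM (counts scaled to library size) in any GRLKO library and at least 70.1 CPM in any WT library of the time series, so the genotypes did not overlap on either diet. At ZT12 on CR the edgeR log2 fold change was -1.70 (adjusted p = 8.33e-05), lower in 3 of 3 GRLKO libraries. Libraries of the diet experiment were the deepest, with a median of 37407547 counts, against 14431388 for corticosterone, 17386700 for CR and 13427104 for NRF in the time series. Hepatocyte markers, led by *Alb*, summed to between 77100 and 182000 CPM in every library, as the liver label calls for. In bulk samples, fewer cells of a type and less RNA per cell cannot be told apart.

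Most members had a daily profile. Under edgeR, time of day was called for 36 of 38 members in WT livers on CR (64.3% of all genes tested), 35 of 38 in GRLKO on CR (60.5%), 32 of 38 in WT on NRF (50%) and 24 of 39 in GRLKO on NRF (42%). With single libraries left out these counts ranged over 32 to 36, 34 to 36, 27 to 33 and 17 to 23, and DESeq2 gave 36, 36, 34 and 23. The highest group mean fell at ZT16 for 25 of the 36 called members in WT on CR (26.8% of all called genes), 27 of 35 in GRLKO on CR (29.1%), 23 of 32 in WT on NRF (17.1%) and 13 of 24 in GRLKO on NRF (24.2%). The lowest mean was at ZT4 for 22 of 32 in WT on NRF (12.8% of all called genes), but at ZT0 for 13 (12.6%) and at ZT20 for 10 (10.9%) of the 36 in WT on CR. The median ratio of highest to lowest mean was 1.8 in WT on CR, 1.96 in GRLKO on CR, 1.55 in WT on NRF and 1.57 in GRLKO on NRF, beside 1.78, 1.8, 1.58 and 1.63 over all called genes.

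*Rrp12* (ENSMUSG00000035049), whose product helps small-subunit precursors leave the nucleus, had the deepest profile in WT on CR. Its values there were 3.39, 5.12 and 4.43 CPM at ZT0, 9.41, 10.2 and 6.17 CPM at ZT12, and 17.5, 14.9 and 17.7 CPM at ZT16, with no overlap between these times. Its highest mean was 3.87 times its lowest (edgeR, adjusted p = 1.96e-05 for time, 3 of 3 ZT16 libraries above all at ZT0). In WT on NRF it went from 6.21, 4.38 and 3.81 CPM at ZT4 to 17.5, 15, 20.8 and 15.4 CPM at ZT16, again without overlap, a ratio of 3.58 (edgeR, adjusted p = 1.06e-05, 4 of 4 libraries higher). In GRLKO the ratio was 4.01 on CR and 2.61 on NRF.

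*Nop2*, a methyltransferase of large-subunit RNA, followed the mean of the other members closely over the 24 groups (r = 0.94), as did *Nop56* (r = 0.94). In WT on CR it had 10.5, 11.1 and 9.73 CPM at ZT0 and 26.4, 23.4 and 28.5 CPM at ZT16, every ZT16 library lying above every ZT0 library (edgeR, ratio 2.5, adjusted p = 2.48e-06, 3 of 3 higher). Over 36 members the median correlation of each with the mean of the others was 0.79, and the weakest was -0.02 for *Dkc1*, the pseudouridine synthase of H/ACA snoRNPs. *Npm1*, a nucleolar chaperone, peaked earlier. In WT on CR it had 173, 196 and 173 CPM at ZT12 and 79.5, 85.8 and 83.4 CPM at ZT20, without overlap (edgeR, ratio 2.18, adjusted p = 3.51e-07, 3 of 3 higher). *Npm1* has processed pseudogenes, and whether they share its reads was not tested, so its level is uncertain. *Nolc1*, a snoRNP chaperone, was called in no test and had at most 2.55 CPM in any library, and whether the tables give its symbol to the right gene ID was not tested.

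**Figure D1:**
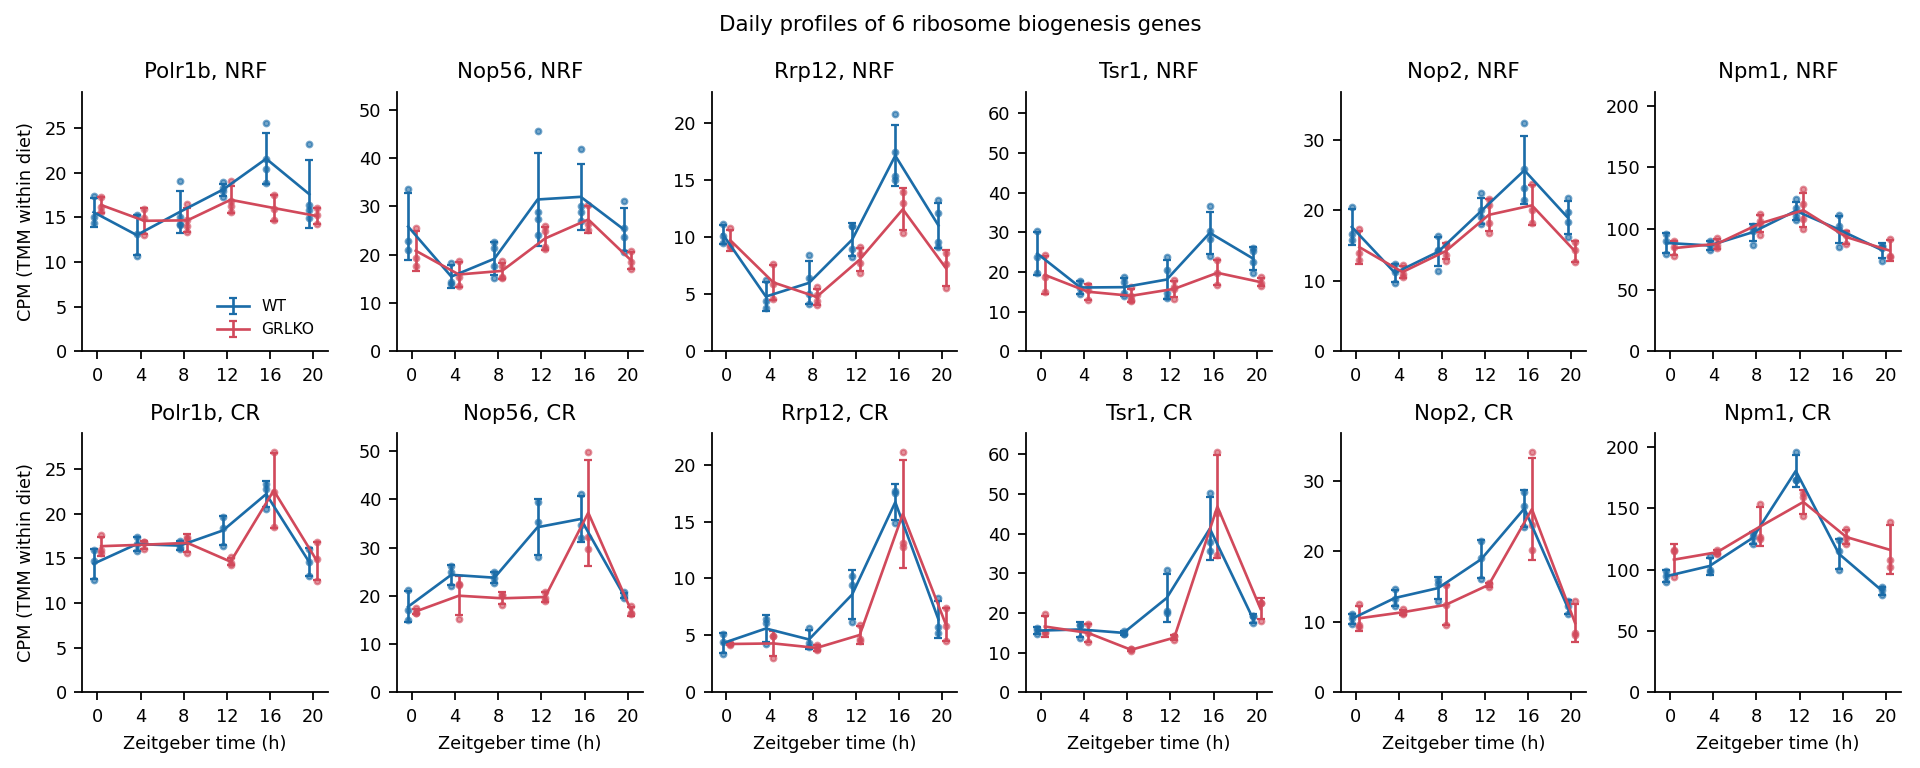
Daily profiles of 6 members in liver on NRF (top) and CR (bottom). Points are libraries, and lines and bars are the group mean and standard deviation in CPM for WT (blue) and GRLKO (red), with 3 or 4 libraries per group. NRF and CR were normalized separately and their levels are not compared.

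The step from ZT12 to ZT16, across the start of feeding, was tested in each line. In WT on CR edgeR called 21 of 38 members (43.6% of all genes tested), 18 of them higher at ZT16 (21.5%) and 3 lower (22.1%), with a median log2 change of 0.29. The largest increases were in *Rrp1b* (1.14), *Rrp12* (0.95), *Mybbp1a* (0.95), *Heatr1* (0.94) and *Nop58* (0.90). *Mybbp1a*, a nucleolar binding partner of MYB, went from 42.2, 44.5 and 41.2 CPM to 82.5, 75.9 and 90.9 CPM, and *Heatr1*, a small-subunit processome factor, from 10.7, 19.2 and 13.4 to 27, 26.5 and 30.8 CPM. Neither gene's groups overlapped. The 3 called lower were *Npm1* (-0.69), nucleolin, *Ncl* (-0.42), and the polymerase I initiation factor *Rrn3* (-0.37). *Npm1* had 173, 196 and 173 CPM at ZT12 and 100, 115 and 124 CPM at ZT16, while *Rrn3* had 24.2, 27.5 and 21.1 CPM and then 18.7, 17.7 and 20.6 CPM, all 3 ZT16 libraries of each lying lower. The calls of 17 members held with each of 18 libraries left out. *Gar1* lost its call without ZT12 WT 3, *Rrn3* without ZT12 WT 2 or ZT16 WT 2, *Utp20* without ZT12 WT 1, ZT12 WT 3 or ZT16 WT 3, and *Polr1b* without ZT0 WT 1, ZT12 WT 1, ZT12 WT 3, ZT16 WT 1 or ZT16 WT 3.

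In GRLKO on CR, 28 of 38 members were called by edgeR (39.9% of all genes tested), all 28 higher at ZT16 (20.3%) and 0 lower (19.5%), with a median of 0.66. *Npm1* was the only member lower at unadjusted p under 0.05 (-0.30), and DESeq2 called 27 members in either direction. *Tsr1* (ENSMUSG00000038335), a late small-subunit factor, led with 14.1, 14.2 and 13.1 CPM at ZT12 and 34.7, 60.6 and 45.3 CPM at ZT16, far from overlapping (edgeR, log2 fold change 1.76, adjusted p = 2.09e-06, 3 of 3 higher). *Rrp12* (1.63), *Heatr1* (1.57), *Rrp1b* (1.45) and *Nop58* came next. With single libraries left out 23 calls held. *Nop2* and *Pes1* lost theirs without ZT16 GRLKO 2, *Nle1* without that library, ZT12 GRLKO 1 or ZT12 GRLKO 3, *Nob1* without ZT12 GRLKO 1 or 2 or ZT16 GRLKO 1 or 2, and *Nop14* without any ZT12 GRLKO library or ZT16 GRLKO 2. These tests use the same ZT12 and ZT16 libraries as the genotype tests, so neither set supports the other.

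On NRF, where the step was not tested against that on CR, edgeR called 11 of 38 members in WT (17.7% of all genes tested), 10 higher (8.84%) and 1 lower (8.83%), with a median of 0.18. The largest were *Nop58* (0.82), *Rrp12* (0.81), *Tsr1* (0.72), *Heatr1* (0.68) and *Nop16* (0.59), and the lower was *Ubtf* (-0.16), the polymerase I upstream binding factor. *Nop58* lost its call without ZT12 WT 3 or ZT16 WT 3, *Ubtf* without ZT12 WT 1, ZT12 WT 3 or any of the 4 ZT16 WT libraries, and *Nop14* without 15 of the 22 WT libraries. In GRLKO 7 of 39 were called (12.4% of all genes tested), with *Mybbp1a* (0.65), *Nop16* (0.65), *Rrp12* (0.63) and *Bysl* (0.47) among 4 higher (5.81%) and *Npm1* (-0.30), *Ubtf* (-0.27) and *Pes1* (-0.23) the 3 lower (6.56%). The GRLKO count was 4 without ZT12 GRLKO 3 and 3 without ZT16 GRLKO 1 or ZT16 GRLKO 3, and only *Mybbp1a* and *Nop16* were called whichever library was left out.

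Whether the daily profile of WT livers differs between feeding regimens was tested as the interaction of diet and time, which does not rest on comparing levels. It was called by edgeR for 24 of 39 members (40.1% of all genes tested), by DESeq2 for 28, and for 19 to 25 with single libraries left out. The smallest adjusted p-values were those of the ribosomal RNA methyltransferase *Fbl* (4.68e-05), *Noc4l* (6.33e-05), *Noc3l* (0.000204), *Nop2* (0.00034) and *Npm1* (0.000393). *Fbl* had 30.2, 30.4, 32.3 and 33.5 CPM at ZT12 on NRF against 24.3, 23 and 21.9 CPM at ZT4, without overlap. On CR it had 22, 22.4 and 21 CPM at ZT12 against 24.4, 24.2 and 26.8 CPM at ZT4, the other way round and also without overlap. Differences in library handling that vary between time points cannot be told apart from diet here.

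Diet at ZT12 was tested directly in the WT diet experiment. EdgeR called 20 of 38 members (47.1% of all genes tested), 15 lower on CR (23.6%) and 5 higher (23.5%), with a median log2 fold change of -0.24 beside 0.00 over all genes. In 23 members the CR and control libraries did not overlap (59% of all genes tested). DESeq2 called the same 20, and the count was 21, 14 and 15 without controls 1, 2 and 3 and 22, 14 and 17 without CR 1, 2 and 3. By role, 5 of 6 snoRNP genes, 6 of 11 large-subunit genes, 4 of 12 small-subunit genes, 2 of 4 polymerase I genes and 3 of 5 nucleolar genes were called. All called snoRNP and large-subunit genes were lower on CR, with role medians of -0.59 and -0.30, whereas all 3 called nucleolar genes were higher. The calls of 14 members held whichever library was left out.

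Among polymerase I genes, *Polr1b*, which encodes a core subunit, had 20.5, 22.9 and 23.2 CPM in controls and 17.8, 15.8 and 14.8 CPM on CR. All 3 CR libraries were below all controls (edgeR, log2 fold change -0.46, adjusted p = 0.00684). *Polr1a*, which encodes the largest subunit, went the other way, with 9.34, 9.66 and 9.96 CPM in controls and 12.5, 13.6 and 17.8 CPM on CR. Its groups did not overlap either (edgeR, log2 fold change 0.60, adjusted p = 0.0106, 3 of 3 higher). *Rrn3* was not called (-0.19).

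Of the H/ACA snoRNP genes, *Nhp2* had 15, 16.3 and 15.9 CPM in controls and 9.13, 10.5 and 9.94 CPM on CR, and *Dkc1* had 13.2, 12.7 and 12.9 CPM and then 9.02, 7.58 and 8.63 CPM, neither overlapping. EdgeR gave log2 fold changes of -0.68 for *Nhp2* (adjusted p = 0.0011) and -0.62 for *Dkc1* (adjusted p = 0.00203), each lower in 3 of 3 libraries. *Gar1* (-0.65) was lower too but lost its call without control 2, control 3, CR 2 or CR 3. Of the C/D core, *Nop58* (-0.56) lost its call without control 2, control 3, CR 1 or CR 2, and *Fbl* (-0.26) lost it without any library except CR 1. *Nop56*, with 22.4, 26 and 31.2 CPM in controls and 26, 26.6 and 29.1 CPM on CR, overlapped fully and was not called (0.04).

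Among assembly factors, *Rrp9* (ENSMUSG00000041506), a protein of the processome snoRNP, had 7.59, 8.04 and 6.8 CPM in controls and 3.89, 3.71 and 3.82 CPM on CR. The CR libraries were close to each other and far below every control (edgeR, log2 fold change -0.97, adjusted p = 0.000811, 3 of 3 lower). *Nle1*, a large-subunit factor, had 4.41, 4.45 and 4.66 CPM in controls and 2.75, 2.21 and 1.77 CPM on CR, again apart (edgeR, log2 fold change -1.01, adjusted p = 0.0042, 3 of 3 lower). *Rrp1b* (-0.83), also of the large subunit, *Grwd1* (-0.60), *Rrs1* (-0.46), *Noc4l* (-0.44) and *Ltv1* (-0.37) were called lower as well. *Noc3l* (-0.48) lost its call without control 2, control 3, CR 1 or CR 2, and *Pes1* (-0.23) without any library except CR 1. *Bop1*, partner of *Pes1*, was not called (0.06), nor were *Bysl* (-0.28) and *Heatr1* (-0.04). *Nop14* of the processome was called higher (0.35).

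Of the 5 nucleolar genes 3 were called, all higher on CR, while *Gnl3* (0.21) and *Mybbp1a* (-0.14) were not called. *Npm1* had 138, 131 and 123 CPM in controls and 198, 181 and 176 CPM on CR, with no overlap (edgeR, log2 fold change 0.50, adjusted p = 0.00222, 3 of 3 higher). *Ddx21*, an RNA helicase, had 32.1, 36.7 and 41.7 CPM in controls and 49.3, 48.2 and 51 CPM on CR, also apart (edgeR, log2 fold change 0.43, adjusted p = 0.0111, 3 of 3 higher). *Ncl* (0.20) lost its call without any control or without CR 2.

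The time series also holds WT livers of each diet at ZT12, normalized separately and not tested against each other. Of the 20 members called for diet, 16 (80%) had their CR mean on the same side of the NRF mean there, and in 10 (50%) the libraries did not overlap, beside 85% and 51.4% of all genes called. Means on CR and NRF were 3.78 and 8.80 CPM for *Rrp9*, 10.5 and 16.9 CPM for *Nhp2* and 17.6 and 7.59 CPM for *Polr1a*, on the same side as in the diet experiment. *Nop58* (11.4 and 8.90 CPM) and *Noc3l* (8.61 and 7.15 CPM) stood on the opposite side, *Pes1* (27.1 and 26.8 CPM) and *Polr1b* (18.1 and 18.1 CPM) were nearly level, and *Dkc1* (12.6 and 13 CPM) overlapped.

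**Figure D2:**
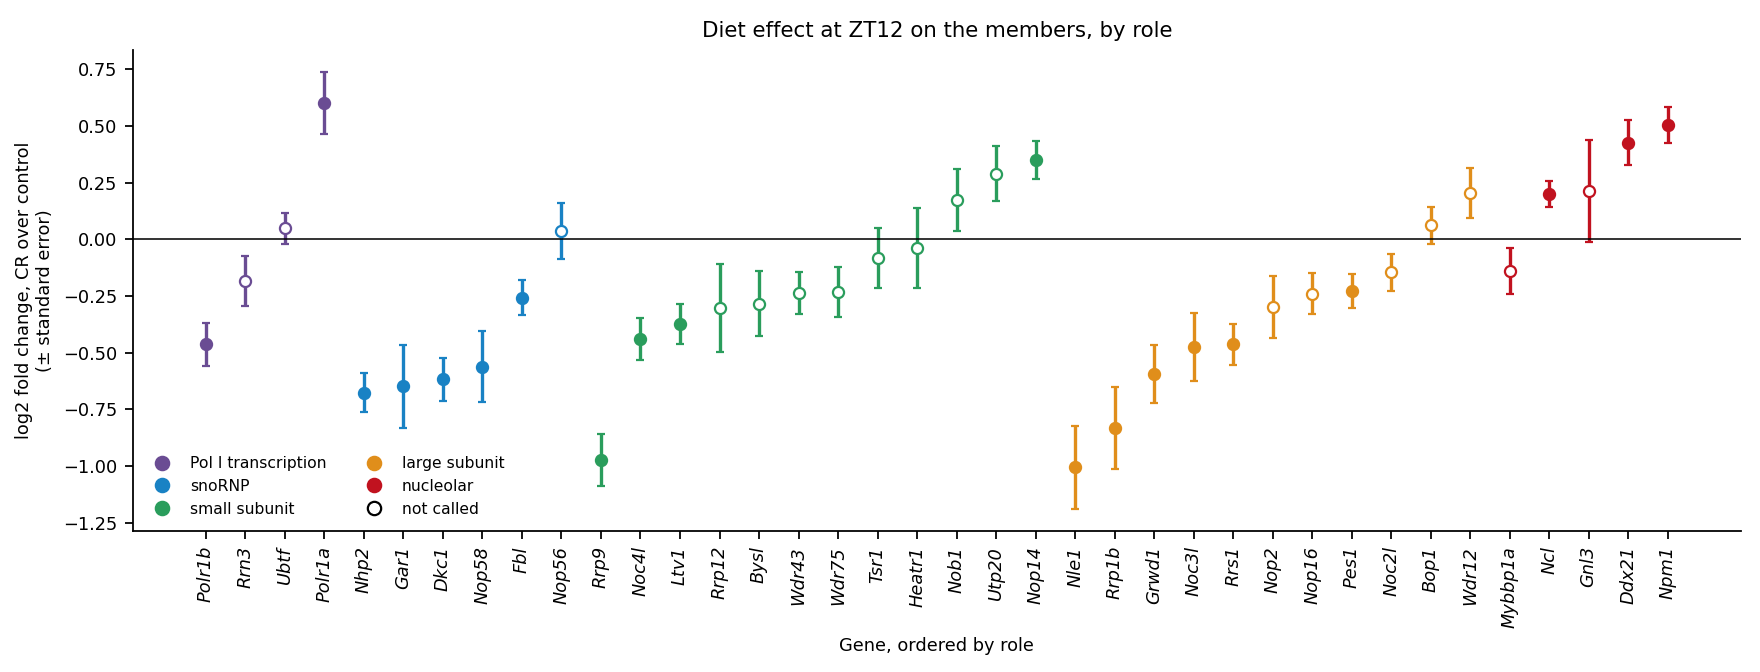
Diet effect at ZT12 on 38 members, ordered by role. Each point is the edgeR log2 fold change of CR over control in WT liver with its standard error, from 3 libraries per group. Filled points were called at adjusted p under 0.05.

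Other lists were set beside the members in the same diet test. Of 100 further biogenesis factors 37 were called (47.1% of all genes tested), 31 lower (23.6%) and 6 higher (23.5%), with a median of -0.15 beside 0.00 over all genes. *Nol6* (-1.13), *Tbl3* (-0.86) and *Ddx56* (-0.82) led them. By contrast 70 of 78 cytosolic ribosomal protein genes were called, all higher on CR (23.5% of all genes tested), with a median of 0.44. In the MYC network 6 of 10 genes were called, beside the same 47.1%. *Mycl*, a MYC paralogue, had 9.87, 11 and 8.06 CPM in controls and 37.9, 33.8 and 24.7 CPM on CR, far apart (edgeR, log2 fold change 1.74, 3 of 3 higher). In the time series at ZT12, where the diets were normalized separately and not tested, *Mycl* in WT stood at 7.58, 9.97 and 12.3 CPM on CR and at 9.62, 7.31, 10.3 and 8.06 CPM on NRF, without the higher level. *Mxd1* (0.78), *Max* (0.57), *Mxi1* (0.44) and *Mnt* (0.39) were higher. *Myc* was called lower (-2.35), although its controls had 21.6, 38.5 and 3.32 CPM and overlapped the CR libraries at 3.94, 3.92 and 4.61 CPM. Of 20 proliferation genes 9 were called, a share near the 47.1% of all genes, among them *Rrm2* (0.78), *Pcna* (0.66) and *Mcm7* (0.45), but 4 without control 2 and 6 without CR 3.

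Cell markers moved with diet as well. The summed hepatocyte markers went from 102000, 101000 and 107000 CPM in controls to 167000, 171000 and 177000 CPM on CR. *Alb* made up most of these sums, with group means of 66400 CPM in controls and 131000 CPM on CR. Of 6 endothelial markers 4 were called higher (23.5% of all genes tested). CPM are relative to the scaled size of each library. Whether this shift in the most abundant transcripts or in cell types contributes to the member values was not tested.

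After corticosterone edgeR called 1 of 38 (8.11% of all genes tested), 6 had unadjusted p under 0.05 (26%), DESeq2 called 4, and groups did not overlap in 8 members (32.9% of all genes tested). The median log2 fold change was 0.04 beside -0.01 over all genes. The call was *Rrs1*, a large-subunit factor, with 17.2, 16.5 and 17.8 CPM after vehicle and 22.5, 24.6 and 24.8 CPM after corticosterone. The groups did not overlap (edgeR, log2 fold change 0.48, adjusted p = 0.0266, 3 of 3 higher), but the adjusted p ran from 0.0481 to 0.117 with single libraries left out. *Rrs1* was not called without vehicle 1, 2 or 3 or corticosterone 1 or 3, and the count of members was 0 without vehicle 1 or 2 or corticosterone 1 or 3. *Polr1a* had 7.17, 7.02 and 5.83 CPM after vehicle and 17.6, 9.42 and 10.2 CPM after corticosterone, without overlap, yet missed the threshold (edgeR, log2 fold change 0.89, adjusted p = 0.0788, 3 of 3 higher). Other members were apart in the lower direction, also without a call. *Nop16* had 31.9, 28.7 and 32 CPM after vehicle and 24.4, 21.6 and 24.2 CPM after corticosterone. *Pes1* had 27.5, 28.2 and 25.8 CPM and then 25.6, 24.5 and 23.7 CPM. Beside the same 8.11%, edgeR called 2 of 99 further biogenesis factors, *Rcl1* (0.94) and *Nat10* (-0.60), and 0 of 76 ribosomal protein genes, with 2 at unadjusted p under 0.05 and 1 by DESeq2.

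Loss of GR on CR was tested at each time point with edgeR. It called 0 of 38 members at ZT0 (0.502% of all genes tested), 0 at ZT4 (0.69%), 1 at ZT8 (2.55%), 8 at ZT12 (15.3%), 0 at ZT16 (4.54%) and 0 at ZT20 (1.47%). At the times with 0, the members with unadjusted p under 0.05 numbered 4, 3, 3 and 6, beside 13.2%, 14.6%, 19.2% and 19.4% of all genes, and DESeq2 called 0, 0, 0 and 2. The call at ZT8 was *Tsr1*, with 14.7, 14.8 and 15.5 CPM in WT and 10.4, 10.9 and 10.9 CPM in GRLKO, well apart (edgeR, log2 fold change -0.48, adjusted p = 0.0296, 3 of 3 lower). This call and the count were lost without any of the 6 ZT8 libraries, WT 1, 2 and 3 and GRLKO 1, 2 and 3, the adjusted p then running from 0.0576 to 0.138.

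At ZT12 on CR all 8 called members were lower in GRLKO (7.84% of all genes tested), 22 had unadjusted p under 0.05 (31%), and in 23 the genotypes did not overlap (36.9% of all genes tested). Among those without overlap, *Dkc1* was higher in GRLKO, with 11.8, 12.3 and 13.7 CPM in WT and 16, 15 and 14.5 CPM in GRLKO. The median log2 fold change was -0.32 beside 0.00 over all genes. DESeq2 called 8, of which 7 were the same and *Ltv1* was not, and edgeR without the filter on low counts called 5. With WT 1, 2 or 3 left out the count was 5, 4 and 8, and with GRLKO 1, 2 or 3 left out it was 5, 3 and 4. *Nop56*, *Rrs1* and *Wdr75* were called every time. *Tsr1* lost its call without GRLKO 1, 2 or 3, *Ddx21* and *Utp20* without WT 1, WT 2, GRLKO 2 or GRLKO 3, *Ltv1* without any library except WT 1, and *Wdr12* without any except GRLKO 3. By role the calls were 0 of 4 polymerase I, 1 of 6 snoRNP, 4 of 12 small-subunit, 2 of 11 large-subunit and 1 of 5 nucleolar genes.

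*Nop56* (ENSMUSG00000027405), a core protein of C/D snoRNPs, had 39.4, 35.3 and 28 CPM in WT and 19.6, 18.9 and 20.8 CPM in GRLKO at this time. All GRLKO libraries lay below all WT libraries (edgeR, log2 fold change -0.80, adjusted p = 0.00915, 3 of 3 lower). *Rrs1* had 17.1, 16.8 and 15.9 CPM in WT and 10.5, 8.79 and 9.53 CPM in GRLKO, and was separated just as clearly (edgeR, log2 fold change -0.80, adjusted p = 0.00426, 3 of 3 lower). *Wdr75*, a processome factor, had 15.6, 16.2 and 15.4 CPM in WT against 10.9, 9.92 and 8.55 CPM in GRLKO, without overlap (edgeR, log2 fold change -0.68, adjusted p = 0.0104, 3 of 3 lower). *Tsr1* had 20.4, 30.9 and 20.1 CPM in WT and 14.1, 14.2 and 13.1 CPM in GRLKO. Its WT libraries were uneven but all higher (edgeR, log2 fold change -0.79, adjusted p = 0.0248, 3 of 3 lower). *Ddx21* (-0.68), *Ltv1* (-0.55), *Utp20* (-0.43) and *Wdr12* (-0.42), the partner of *Pes1* and *Bop1*, completed the list.

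In the same test 14 of 100 further biogenesis factors were called (15.3% of all genes tested), all lower in GRLKO (7.84%), with a median of -0.21. *Gtpbp4* (-0.83), *Mphosph10* (-0.74) and *Mak16* (-0.70) led them. Left-out libraries moved that count to 9, 2 and 7 without WT 1, 2 and 3 and to 8, 6 and 1 without GRLKO 1, 2 and 3. Ribosomal protein genes gave 4 of 77, all lower, beside the same shares, and 2, 1, 2, 3, 4 and 0 in the same order. In the MYC network *Mlx* alone was called, with 34.4, 33.6 and 34.5 CPM in WT and 27.1, 27.1 and 23.3 CPM in GRLKO (edgeR, -0.41), and the call was lost without WT 2, WT 3 or GRLKO 3.

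Cell markers differed between genotypes here too. Kupffer and myeloid markers summed to 45.9, 77 and 56.8 CPM in WT and 127, 103 and 163 CPM in GRLKO, with *Clec4f* the most abundant and none at 0. Of these 8 markers 4 were called higher, where 15.3% of all genes tested were called in either direction. Hepatocyte markers summed to 178000, 176000 and 182000 CPM in WT and 138000, 149000 and 130000 CPM in GRLKO, 3 of 7 being called lower (7.84% of all genes tested). Most of these sums was *Alb*, with group means of 138000 CPM in WT and 104000 CPM in GRLKO. Markers of exocrine pancreas reached 810 CPM in WT 3 and stayed at 0.70 CPM or less in the others, and without WT 3 *Ltv1* and *Wdr12* lost their calls while 2 other members gained one. Whether these shifts contribute to the lower member values was not tested. The same WT 3 library also entered the time tests of WT on CR. On NRF, ZT16 WT 2 reached 416 CPM of exocrine pancreas markers and entered the time and genotype tests there. Beyond leaving each library out in turn, whether pancreas RNA affects those results was not tested.

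**Figure D3:**
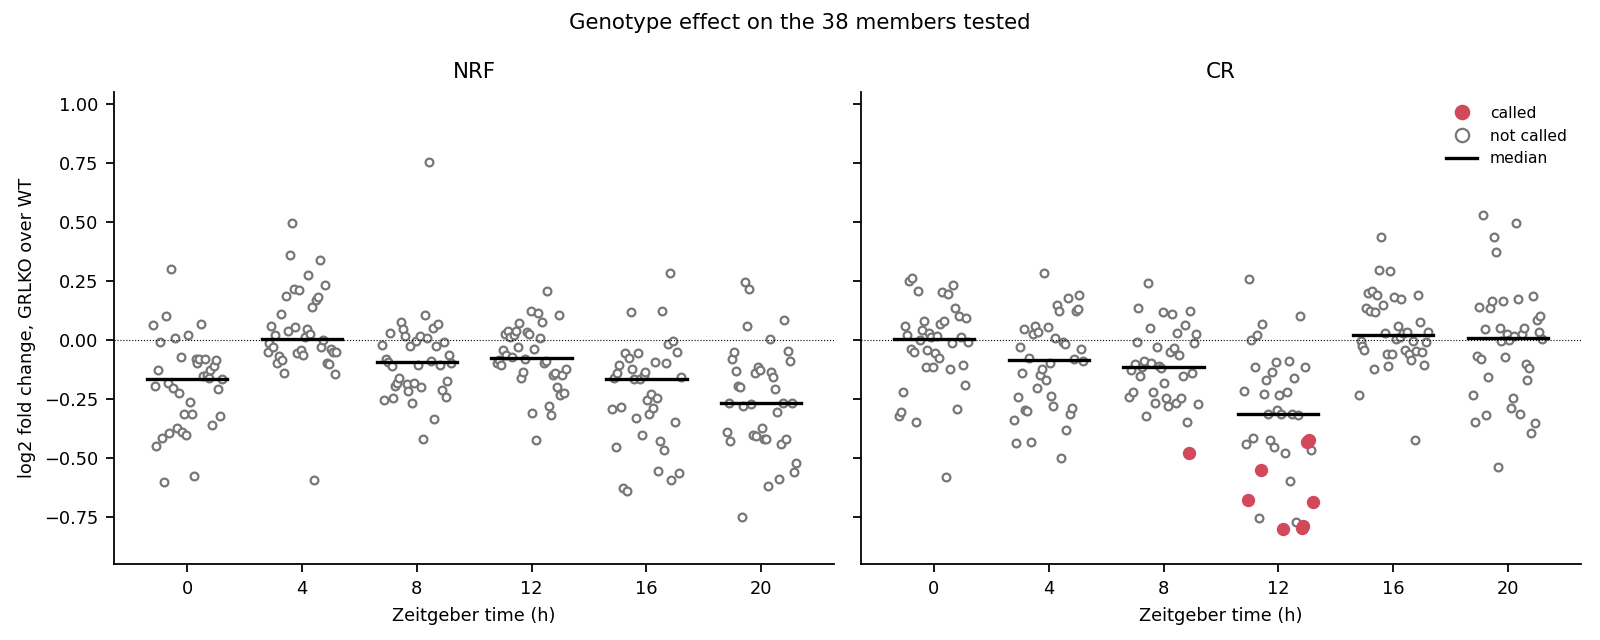
Genotype effect on 38 members at each time point on NRF (left) and CR (right). Each point is the edgeR log2 fold change of GRLKO over WT for 1 member, red where called at adjusted p under 0.05, and black bars are medians. Groups hold 3 or 4 libraries.

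On NRF edgeR called 0 of 38 members for genotype at ZT0 (0.536% of all genes tested), 0 at ZT4 (0.195%), 0 at ZT8 (1.43%), 0 at ZT12 (2.08%), 0 at ZT16 (1.98%) and 0 at ZT20 (0.42%). Members with unadjusted p under 0.05 numbered 5, 1, 3, 1, 13 and 16 in this order, beside 15.3%, 9.75%, 11.2%, 12.6%, 16.6% and 11.3% of all genes, and DESeq2 called 0, 0, 0, 0, 3 and 2. Without ZT16 WT 1 the count at ZT16 became 1. Medians were -0.16, 0.01, -0.10, -0.08, -0.17 and -0.27, beside -0.01 to 0.01 over all genes.

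In the MYC network edgeR called 1 of 10 genes for genotype on NRF at ZT16, *Mnt*, and 1 of 10 at ZT20, *Myc*, beside the same shares of all genes. *Myc* had 3.17, 2.47, 2.62 and 3.72 CPM in WT and 31.4, 22 and 20.6 CPM in GRLKO at ZT20, far apart (edgeR, log2 fold change 3.05, adjusted p = 0.00207, 3 of 3 higher), and 1 network gene was called at ZT20 whichever library was left out. At ZT16 it had 2.63, 2.44, 10.3 and 2.38 CPM in WT and 24.3, 27.4 and 20 CPM in GRLKO, also without overlap but short of a call (edgeR, log2 fold change 2.44, adjusted p = 0.0524, 3 of 3 higher). *Mnt*, a MAX-binding repressor, had 16.7, 18.2, 17.3 and 15.7 CPM in WT and 11.1, 8.16 and 8.05 CPM in GRLKO at ZT16, without overlap (edgeR, log2 fold change -0.89, adjusted p = 0.0211, 3 of 3 lower). The number of network genes called at ZT16 became 0 without WT 2, GRLKO 2 or GRLKO 3 and 2 without WT 3.

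A call on CR and none on NRF does not show that the genotype effect differs between diets, so the interaction was tested. EdgeR called 0 of 38 members at ZT0 (0% of all genes tested), 0 at ZT4 (0%), 0 at ZT8 (0.081%), 0 at ZT12 (1.01%), 0 at ZT16 (0.234%) and 0 at ZT20 (0%). Unadjusted p was under 0.05 for 4, 4, 1, 7, 6 and 11 members, beside 10.2%, 6.03%, 8.45%, 14.2%, 10.5% and 6.97% of all genes, and DESeq2 called 0 each time. At ZT12 the interaction was -0.64 for *Rrs1* (adjusted p = 0.324), -0.55 for *Wdr75* (adjusted p = 0.161), -0.36 for *Nop56* (adjusted p = 0.591) and -0.57 for *Tsr1* (adjusted p = 0.382). For these members the genotype effect is therefore not shown to depend on diet.

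An interaction test of genotype with time asked whether GRLKO alters the daily profile. On CR edgeR called 4 of 38 members (5.34% of all genes tested), *Tsr1* (adjusted p = 0.0348), *Ltv1* (0.0355), *Ncl* (0.0403) and *Npm1* (0.0492), with 12 at unadjusted p under 0.05 (20.4%) and 5 called by DESeq2. For *Tsr1* the genotype values behind it were -0.79 at ZT12 and 14.1, 14.2 and 13.1 CPM in GRLKO rising to 34.7, 60.6 and 45.3 CPM at ZT16, where WT had 38, 35.6 and 50.3 CPM and overlapped. *Npm1* and *Ncl* were higher in GRLKO at ZT20, without overlap but not called for genotype there. *Npm1* had 79.5, 85.8 and 83.4 CPM in WT and 102, 139 and 108 CPM in GRLKO. *Ncl* had 41.4, 40.6 and 47.6 CPM in WT and 48.7, 68.6 and 57.4 CPM in GRLKO. The count of members with this interaction was 0 without ZT8 GRLKO 1, ZT12 WT 2, ZT12 GRLKO 2, ZT12 GRLKO 3, ZT20 WT 1 or ZT20 GRLKO 2. It was 1 without ZT4 WT 1, ZT4 WT 2, ZT4 GRLKO 2, ZT8 GRLKO 2, ZT8 GRLKO 3, ZT16 WT 1, ZT16 WT 2, ZT16 GRLKO 2, ZT16 GRLKO 3 or ZT20 WT 2. It was 2 without ZT0 WT 1, ZT0 WT 3, ZT0 GRLKO 3, ZT4 GRLKO 1, ZT4 GRLKO 3, ZT12 WT 1, ZT12 WT 3, ZT12 GRLKO 1, ZT16 GRLKO 1 or ZT20 GRLKO 3. On NRF edgeR called 0 of 39 (0.6% of all genes tested), with 7 at unadjusted p under 0.05 (10%) and 0 by DESeq2, and 1 without ZT0 WT 3.

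Genes whose daily profile over the 24 groups was most like the mean of the members were ranked among 8623 genes. The members were left out of the ranking, and so were all genes of the comparison lists and the cell markers. The 10 closest of the remaining genes were *Metap1* (r = 0.96), *Armt1* (r = 0.94), *Eif1ad*, *Rwdd4a*, *Dnajc11*, *Gmps*, *Pde12*, *4833439L19Rik*, *Exosc1* and *Psme3*. *Metap1* encodes a methionine aminopeptidase that acts on nascent proteins, and *Exosc1* a subunit of the RNA exosome, which trims ribosomal RNA precursors. The closest opposite profile was that of *Cdc14b* (r = -0.92). This ranking uses the same libraries as the members' own profiles and is a description only.

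Promoters were read for the E-box CACGTG, a motif that MYC and MAX bind, among other factors. The paper assigns E-box motifs to the clock factor Bmal1, so a match does not point to MYC alone. RefSeq starts on GRCm38.p6 matched 34 of the 39 members, and both strands of 300 bases around each start were searched. A match was found for 10 members (29.4%), beside 8.09% of all 27025 genes 18.6% of the 86 further biogenesis factors matched and 10.5% of 57 ribosomal protein genes. Of the other motifs searched, the ETS core was found in 23.5% of members beside 4.31% of all genes, the noncanonical E-box in 26.5% beside 10.5%, and the NRF1 core in 5.88%, which is 2 genes, beside 3.05%. The further biogenesis factors were higher still for these motifs, at 33.7%, 33.7% and 6.98%. The palindromic GR motif was found in 0 members, by the same exact search, and in 0.0111% of all genes. Stretches around the E-box of *Nop2* and *Tsr1* are shown, as members with pronounced daily profiles, chosen after their values were seen, from chr6:125131811-125131840 and chr11:74898092-74898121, both on the plus strand, with capitals marking the E-box. The shares were not tested, all genes here include those not expressed in liver, and a match is a description, not a site in use.
Nop2: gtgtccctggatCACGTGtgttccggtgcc
Tsr1: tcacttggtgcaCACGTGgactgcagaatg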

How the data were processed

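RNA had been sequenced from 90 mouse liver libraries after poly(A) selection. The authors quantified transcripts with Salmon and deposited estimated counts per gene in 4 tables, which are not normalized. A variance-stabilized table of the corticosterone libraries was also deposited but set aside, as edgeR and DESeq2 work on counts. Groups follow the titles and labels of the samples.

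Estimated counts were rounded and analysed in R 4.3.3 with edgeR 4.0.16 and limma 3.58.1. Genes were filtered with filterByExpr at a minimum count of 10, libraries were scaled by TMM within each table, and quasi-likelihood F tests were made with adjustment over all genes tested. A gene was called at adjusted p under 0.05. CPM values use the same scaling. The comparisons were diet at ZT12, corticosterone at ZT12, genotype at each time point and diet, time of day within each line, ZT16 against ZT12 within each line, and the interactions of genotype with diet, genotype with time and diet with time. Tests were tried first on simulated data.

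Depth ran from 10057544 to 17089004 counts in the NRF libraries, from 14235473 to 20788575 on CR in the time series, from 36442195 to 39492146 in the diet experiment and from 13739631 to 16077943 with corticosterone. At such depth, a member at 4 CPM rests on a small number of counts in the shallower libraries, and its values are correspondingly coarse. The 102 pairs of libraries within groups were checked for duplicates, and the closest pair still differed by a chi-square per degree of freedom of 10.9.

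Members and comparison lists were chosen with earlier results of these data known. Genes named were *Nr3c1*, a fixed set of 12 leading members, the 5 largest called members of each comparison with any against the main direction, members called nowhere, genes of the MYC network called for diet or genotype and the leading called genes of other lists. Other names were chosen after the values were seen. The mean profile is the mean over members of log2 CPM with a prior count of 2, centred within each table. Genes like it were ranked by Pearson correlation over 24 group means, among genes outside all lists with a mean of at least 5 CPM. Host genes of small nucleolar RNAs were not analysed, since the tables matched 0 of the 11 listed.

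Promoters were 300 bases per RefSeq start, 250 before and 50 after it, read from GRCm38.p6. The side on which the diet calls stood in the time series, the correlation of each member with the mean of the others, and the shares of all genes by time of peak and at unadjusted p, were computed after the results had been seen. Alternatives were DESeq2 1.42.0, its size factors in edgeR, no filter on low counts, the replicate number as a block, and each library left out in turn.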

Additional observations from a re-analysis of the deposited data

Results flagged for a closer look

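Libraries were compared with their own group by a test for a single outlying value, in the 6 groups that hold 4 libraries. Of 78 such tests 4 passed, where about 1 in 20 would do so by chance. The mean of the members was 0.57 in NRF ZT16 WT replicate 3, with the others between 0.23 and 0.28. *Bop1* was at 32.6 CPM in NRF ZT20 WT replicate 4, against 27.4 to 28.2 CPM in the rest of the group. *Npm1* was at 73.5 CPM in NRF ZT20 WT replicate 3, against 84.2 to 86.2 CPM. *Ddx21* was at 39.4 CPM in NRF ZT8 GRLKO replicate 1, against 32.7 to 33.7 CPM.

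Interactions with time that passed their test were listed as well, because an effect that differs between groups is easily missed. They were called by edgeR for 24 of 39 members for diet by time in WT (40.1% of all genes tested) and for 4 of 38 members for genotype by time on CR (5.34%), the 4 becoming 0 without any of 6 single libraries. The latter were *Tsr1* (adjusted p = 0.0348), *Ltv1* (0.0355), *Ncl* (0.0403) and *Npm1* (0.0492). None of these was tested further.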

How the results depend on the processing

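Over 31 counts of called members and the mean profile by group, 568 of 622 alternative values differed by at most 1.5 times for a count or by under 1 standard deviation for a mean. Of the rest 48 were weaker, 6 stronger and 0 reversed. The count for corticosterone was 4 by DESeq2, 0 with the replicate number as a block and 0 to 1 with single libraries left out. For genotype on CR it was 0 at ZT8 with the block and 0 to 0 with libraries left out, 5 at ZT12 without the filter on low counts and 3 to 8 with libraries left out, and 2 at ZT20 by DESeq2. For genotype on NRF it was 3 at ZT16 by DESeq2 and 0 to 1 with libraries left out, and 2 at ZT20 by DESeq2. ZT16 against ZT12 in GRLKO on NRF ranged from 3 to 7 with libraries left out. Genotype by time on CR gave 1 without the filter and 0 to 4 with libraries left out, and on NRF 0 to 1. Replicate numbers do not pair samples, and correlations between samples sharing a number ran from -0.12 to 0.11. The block changed no other count of members by over 1.5 times, but for genotype on CR at ZT12 it kept 5 of the 8 calls and lost *Utp20*, *Ltv1* and *Wdr12*. The median member or a prior count of 0.5 moved no group mean by 1 standard deviation or more.

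Groups hold 3 or 4 libraries, and members with small or uneven shifts are easily missed. Many calls sit close to the threshold and depend on single libraries. Diet coincides with separate tables of libraries in the time series. Whole liver was sequenced, and markers of several cell types differ between groups. Transcript levels of these genes say nothing about the rate at which ribosomes are made.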
